A study of Mus musculus with 105 samples.

Results

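Genes of the nuclear pore and of the soluble carriers that pass through it were followed through mouse oocyte maturation and after loss of Btg4. Members were all genes whose names follow the patterns of nucleoporins (Nup), importins (Kpna, Kpnb, Ipo), exportins (Xpo) and transportins (Tnpo), together with Rae1. This gave 45 of the 20756 genes in the expression tables, made up of 22 nucleoporins including Rae1 and 23 transport receptors, and the same 45 were among the 20603 genes of the tail table. The study profiled ribosome-protected fragments (footprints), mRNA and poly(A) tails in oocytes and early embryos with low-input methods. Of its 105 samples, 53 had values here and 52 were not used here.

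The single oocyte set held footprints of 20 wild-type oocytes arrested at metaphase II (MII) and of 18 wild-type full-grown oocytes (FGO), 1 library per oocyte. The Btg4 set held MII oocytes of Btg4 KO and Btg4 Het females, with 3 footprint and 2 mRNA libraries of each genotype. Both genotypes carried the targeted allele, since the comparison group was heterozygous. The tail set held 2 libraries of Btg4 KO MII oocytes, 1 of Btg4 Het MII oocytes, 1 of wild-type MII oocytes and 1 of wild-type FGO, the last labelled SN. By the labels, oocytes came from C57BL/6 females, aged 5 or 8 weeks, given 5 IU each of the gonadotropins PMSG and hCG. Some strain labels carry running numbers, and C57BL/6 was taken as the strain. The same hormone doses are given for FGO and MII groups. The labels tie no library to an animal, do not say which part of Btg4 was removed and give no oocyte number for the Btg4 libraries. P-values therefore measure the spread between libraries, which may be technical, and each stage of single oocytes counted as 1 sample without a test. In the Btg4 libraries, fewer oocytes carrying a transcript and less of it per oocyte cannot be told apart.

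The nuclear pore is a ring-shaped channel in the nuclear envelope. Its scaffold consists of an outer ring built from the Y complex and an inner ring, its channel is lined by nucleoporins rich in phenylalanine-glycine (FG) repeats, and filaments and a basket project to the cytoplasm and the nucleus. Importin alpha proteins bind a nuclear localisation signal and hand the cargo to importin beta, other importins and transportins bind cargo directly, and exportins carry cargo outwards, all steered by the GTPase Ran. A full-grown oocyte has an intact nucleus, the germinal vesicle, whereas an MII oocyte has taken the envelope and its pores apart and carries a spindle; both stages are transcriptionally silent or nearly so. BTG4 is an adaptor of the CCR4-NOT deadenylase that promotes decay of maternal mRNA during maturation.

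All expression values were FPKM, that is fragments scaled to the length of the transcript and to the size of the library, so levels can be compared between genes per length. All 10 oocyte marker genes averaged at least 1 FPKM in each group of the footprint and mRNA tables. The worth of 1 read on the FPKM scale, relative to a common scale, had a median of 2.16 in MII oocytes (0.760 to 2.98) and of 0.582 in FGO (0.323 to 1.20), so MII values rested on fewer reads. The 10 blood markers summed to a median of 0.114 FPKM in MII oocytes (0 to 166) and 1.25 FPKM in FGO (0 to 857), with 3 of them averaging 1 FPKM or more in MII and 9 in FGO. The 15 follicle cell markers summed to a median of 18.3 FPKM in MII oocytes (0 to 39.3) and 24.3 FPKM in FGO (0 to 94.2), with 3 of them at that level in MII and 7 in FGO; the part of these cells in the results was not tested. Btg4 itself was at 907 to 1148 FPKM in KO footprints, against 6134 to 7009 FPKM in Het footprints, and at 1754 and 2345 FPKM in KO mRNA, against 3293 and 4774 FPKM in Het mRNA. MII oocytes 2 and 4 were the highest MII oocytes for 6 members, namely Kpna2, Nup133, Ipo4, Ipo5, Ipo9 and Kpnb1, and values that these oocytes move beyond the limits used here are given with and without them. In the Btg4 footprints, 123 of 2665 genes with at least 10 FPKM in the other 4 libraries were listed at 0 in both replicate 2 libraries, against 1 of 2372 for replicate 1 and 10 of 2578 for replicate 3; Nup35 was the member among them.

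Footprints on nuclear pore genes were mostly higher in MII oocytes than in FGO, while footprints on transport receptors went both ways. Members together took 0.326 ± 0.0462% of the summed FPKM in MII oocytes and 0.167 ± 0.0462% in FGO (SD over 20 and 18 oocytes). Nucleoporins and Rae1 held 61.9 ± 5.58% of the members' FPKM in MII oocytes and 39.7 ± 6.35% in FGO. Much of that difference lay in Nup35, which alone held 25.4 ± 6.57% in MII oocytes and 10.6 ± 5.34% in FGO. Among the receptors, Kpna7 held 10.8 ± 2.70% in MII oocytes and 20.6 ± 5.76% in FGO. The most abundant members in MII oocytes were Nup35, Ipo8 and Kpna7, whereas in FGO they were Kpna7, Kpna2 and Nup35. An oocyte had between 24 and 38 members at 1 FPKM or more in MII (median 28) and between 17 and 41 in FGO (median 34).

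Of the 45 members, 39 averaged at least 1 FPKM in at least 1 stage and were compared. A difference was counted when the log2 ratio of (mean FPKM + 1), MII over FGO, was at least 1 in size. On that scale, which understates changes of low genes, 13 members were higher in MII, where 25.8% of all 10068 genes compared were, and 7 were lower, where 31.8% of all genes were. The members' median log2 ratio was 0.37, against -0.26 over all genes. Among the 19 nucleoporins compared, 10 were higher and 2 lower (median log2 ratio 1.09), and among the 20 receptors 3 were higher and 5 lower (median -0.23). Nup210, Nup210l, Nup62cl, Ipo11, Ipo13 and Xpot did not reach 1 FPKM in either stage.

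**Figure D1:**
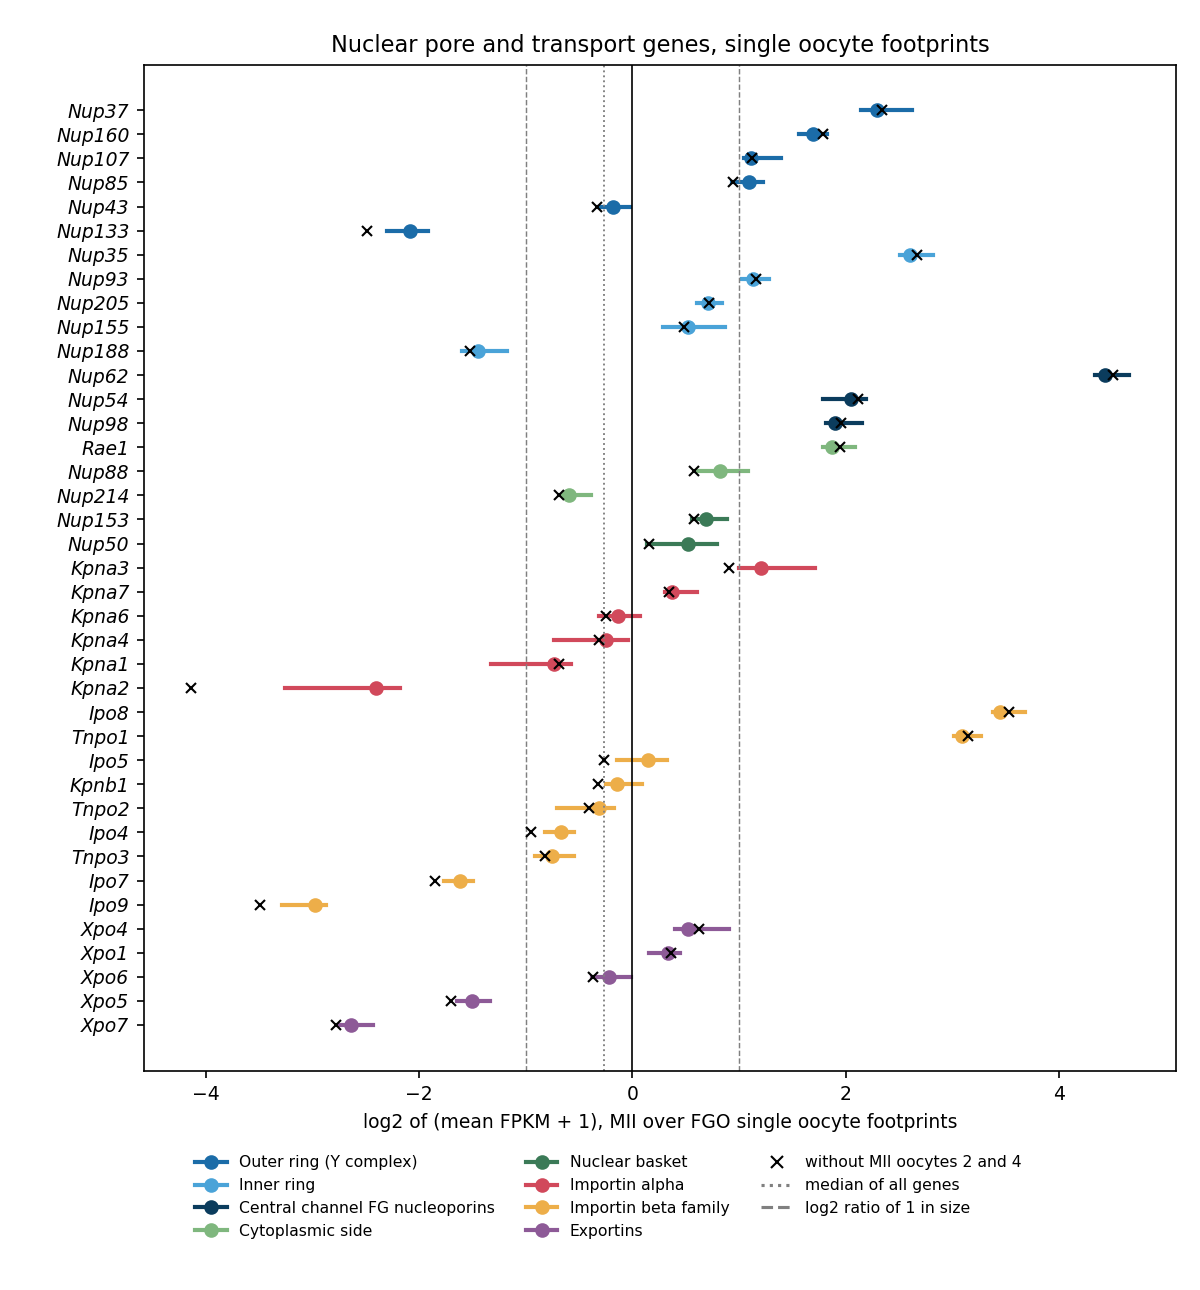
Log2 ratio of (mean footprint FPKM + 1), MII over FGO single oocytes, for the 39 members compared, grouped by role. Dots give the ratio over 20 MII and 18 FGO oocytes, bars the range when each oocyte was left out in turn, and crosses the ratio without MII oocytes 2 and 4. Nup62 lies farthest to the right at 4.43 and Ipo9 farthest to the left at -2.98, and the cross of Kpna2 lies at -4.14.

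The 3 channel nucleoporins compared were all higher in MII. Nup62, the central FG nucleoporin that lines the channel, had 12.4, 76.2 and 183 FPKM (lowest, median and highest) in 20 MII oocytes, against 0, 1.68 and 12.1 FPKM in 18 FGO, a log2 ratio of 4.43. Every MII oocyte lay above every FGO, with MII oocyte 4 just above the highest FGO. Nup54, its partner in the channel complex, had 1.90, 12.2 and 74.2 FPKM in MII oocytes, against 0, 1.93 and 9.96 FPKM in FGO (log2 ratio 2.05), and the stages overlapped. Nup98, an FG nucleoporin that also serves mRNA export, had 12.2, 56.6 and 124 FPKM in MII oocytes, against 0.375, 9.75 and 61.1 FPKM in FGO (log2 ratio 1.90). Over all pairs of 1 MII oocyte and 1 FGO, MII was higher in 92.2% for Nup98 and in 89.4% for Nup54. Rae1, the mRNA export factor that binds NUP98 and also acts in spindle assembly, had 0, 22.3 and 47.4 FPKM in MII oocytes, against 0, 3.52 and 21.2 FPKM in FGO (log2 ratio 1.87). Whole reads could be recovered for Rae1 and came to 108 over the MII oocytes and 90 over the FGO. The stages overlapped for Rae1, and 2 MII oocytes listed it at 0.

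Scaffold nucleoporins split. Nup35, an inner ring protein that binds membranes, was the most abundant member in MII, with 78.7, 290 and 623 FPKM in MII oocytes, against 2.15, 44.6 and 162 FPKM in FGO (log2 ratio 2.60). Its ranges overlapped, although MII was higher in 98.1% of pairs. Nup93, which anchors the inner ring, had 8.55, 37.0 and 96.1 FPKM in MII oocytes, against 4.04, 14.3 and 48.8 FPKM in FGO, with MII higher in 81.1% of pairs. The large ring proteins Nup205 and Nup155 had log2 ratios of 0.71 and 0.52. Nup188, the relative of NUP205 in the inner ring, went the other way, with 0, 1.93 and 8.07 FPKM in MII oocytes, against 0, 5.40 and 31.3 FPKM in FGO (log2 ratio -1.44). Within the inner ring, then, 2 of 5 members were higher in MII and 1 was lower.

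Of the 6 Y complex members, 4 were higher in MII and 1 was lower. Nup37, a peripheral subunit of that complex, had 6.04, 44.8 and 158 FPKM in MII oocytes, against 0, 6.00 and 49.7 FPKM in FGO (log2 ratio 2.29). The stages overlapped, with MII higher in 93.1% of pairs. Nup160, a core arm of the Y, had 1.42, 6.74 and 27.4 FPKM in MII oocytes, against 0.253, 1.92 and 6.86 FPKM in FGO (log2 ratio 1.70). Its reads came to 245 in MII oocytes and 140 in FGO. Nup107 and Nup85, further core subunits, had log2 ratios of 1.12 and 1.09, and Nup43, a peripheral subunit, had -0.18.

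Nup133, which forms the stem of the Y and contacts membranes, was the exception, with 0 FPKM in 18 MII oocytes and 3.87 and 2.62 FPKM in MII oocytes 2 and 4, against 0.393, 3.75 and 15.0 FPKM in FGO. Its log2 ratio was -2.09, and -2.49 without those 2 oocytes. Both oocytes in which Nup133 was above 0 lay inside the FGO range. Subunits that assemble into 1 complex thus differed in direction, with Nup160 at 1.70 and Nup133 at -2.09 on the same scale.

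The peripheral pore genes other than Rae1 stayed below the fold with all oocytes. On the cytoplasmic side, Nup88 had a log2 ratio of 0.82 (1.09 without FGO 2) and its partner Nup214 of -0.60. In the nuclear basket, Nup153 had 0.69 and Nup50 had 0.52. Of the pore membrane, Nup210 averaged 0.246 FPKM in MII oocytes and 0.575 FPKM in FGO, and Nup210l averaged 0.0950 FPKM in MII oocytes and 0.254 FPKM in FGO.

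Among the receptors, 2 direct importers stood far above the rest. Ipo8, an importin whose known cargo includes SMAD and Argonaute proteins, had 38.7, 148 and 227 FPKM in MII oocytes, against 1.25, 9.06 and 45.4 FPKM in FGO (log2 ratio 3.45). The ranges overlapped, with MII lower in 0.278% of pairs. Tnpo1, the transportin of hnRNP proteins, had 34.4, 81.0 and 162 FPKM in MII oocytes, against 1.43, 5.15 and 26.9 FPKM in FGO (log2 ratio 3.09). Every MII oocyte was above every FGO for Tnpo1, as for Nup62, which made 2 of 39 members, where 1.91% of all genes had such a gap. Its close relative Tnpo2 averaged 2.42 FPKM in MII oocytes and 3.25 FPKM in FGO (log2 ratio -0.31).

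**Figure D2:**
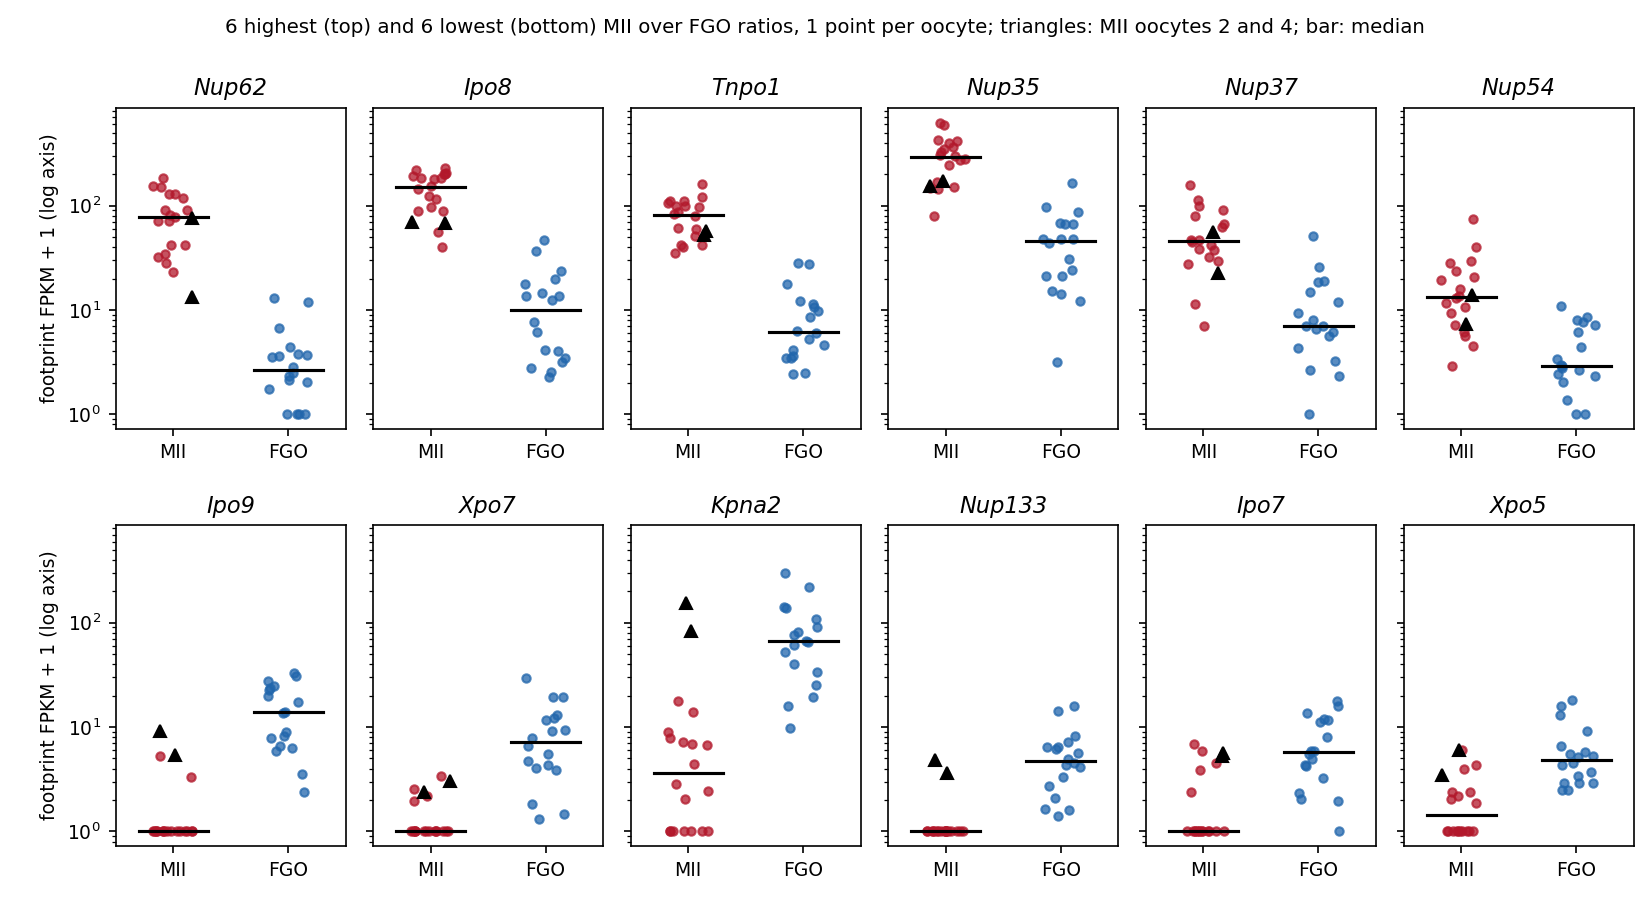
Footprint FPKM + 1 on a log axis in each of 20 MII and 18 FGO single oocytes, for the 6 members with the highest (top) and the 6 with the lowest (bottom) MII over FGO ratio. Black triangles mark MII oocytes 2 and 4 and bars mark medians. Nup62 and Tnpo1 show no overlap between stages, and in the Kpna2 panel the 2 triangles lie among the FGO while the other MII oocytes lie at 16.7 FPKM or below.

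Other importers were lower in MII. Ipo9, known for carrying histones H2A and H2B, was above 0 in 4 of 20 MII oocytes and reached 8.13 FPKM there, against 1.37, 12.8 and 32.3 FPKM in FGO (log2 ratio -2.98). MII oocytes 2 and 4 held 8.13 and 4.39 FPKM of Ipo9, and the ratio was -3.50 without them. Ipo7, an importer of ribosomal proteins, averaged 1.38 ± 2.10 FPKM in MII oocytes and 6.30 ± 5.11 FPKM in FGO (log2 ratio -1.62). MII oocytes 2 and 4 held 4.34 and 4.69 FPKM of it, near the highest of the others at 5.86 FPKM. Kpnb1, importin beta itself, was at 0, 12.3 and 35.6 FPKM in MII oocytes, against 1.58, 15.4 and 61.3 FPKM in FGO (log2 ratio -0.14), and MII was higher in 49.2% of pairs. Ipo4 had a log2 ratio of -0.67. Ipo5 had 0.15, and -0.27 without MII oocytes 2 and 4, which held 19.5 and 45.5 FPKM of it where the other 18 held at most 17.7 FPKM. Scaling each oocyte to the same summed FPKM also turned the sign of Ipo5 (-0.17), and the sign of Kpnb1 turned without FGO 2 (0.09). Tnpo3, an importer of splicing factors, had 0, 0 and 3.13 FPKM in MII oocytes, against 0, 0.480 and 6.45 FPKM in FGO (log2 ratio -0.75).

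Of the 5 exportins compared, 0 were higher in MII by the fold and 2 were lower. Xpo7, an exportin with broad cargo, had 0, 0 and 2.42 FPKM in MII oocytes, against 0.304, 6.24 and 28.4 FPKM in FGO (log2 ratio -2.63). Its reads came to 13 over 20 MII oocytes and 395 over 18 FGO, and 1 read of Xpo7 was worth a median of 1.35 FPKM in MII oocytes, below the FGO median. The ranges overlapped, with MII lower in 95% of pairs. Xpo5, the carrier of microRNA precursors, had 0, 0.426 and 5.02 FPKM in MII oocytes, against 1.48, 3.85 and 17.3 FPKM in FGO (log2 ratio -1.51). Xpo1, the main protein exportin CRM1, had 0, 6.90 and 23.5 FPKM in MII oocytes, against 0.336, 2.92 and 12.6 FPKM in FGO (log2 ratio 0.34). Xpo4 had a log2 ratio of 0.53 and Xpo6, the exportin of actin, of -0.21.

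The importin alpha genes, which are alternative adaptors for the same step, changed in relative weight. Kpna7, the oocyte-enriched form in mouse, stayed the leading one, with 36.5, 141 and 215 FPKM in MII oocytes, against 23.8, 72.5 and 345 FPKM in FGO (log2 ratio 0.37). Kpna2, the form best known from dividing cells, was listed at 0, 2.61 and 153 FPKM in MII oocytes, against 8.77, 65.2 and 297 FPKM in FGO (log2 ratio -2.40). MII oocytes 2 and 4 had 81.6 and 153 FPKM of Kpna2, the other 18 had 0 to 16.7 FPKM, and the log2 ratio without those 2 was -4.14. Kpna3 was higher in MII, at 0, 12.1 and 60.3 FPKM, against 0, 2.30 and 45.2 FPKM in FGO (log2 ratio 1.21, and 0.91 without MII oocytes 2 and 4, which ends the call). Of the summed importin alpha FPKM, Kpna7 made up 77.1 ± 16.2% in MII oocytes and 50.5 ± 11.7% in FGO, and Kpna2 made up 6.02 ± 10.8% in MII oocytes and 39.9 ± 9.48% in FGO. Kpna2 held 26.1% and 43.8% in MII oocytes 2 and 4, and without them its mean share in MII was 2.81 ± 3.48% (n = 18) and that of Kpna7 was 80.6 ± 12.7%. Kpna6 had a log2 ratio of -0.13 (0.07 without FGO 6), Kpna4 of -0.24 and Kpna1 of -0.74, the last 2 averaging at most 1.51 FPKM in either stage.

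**Figure D3:**
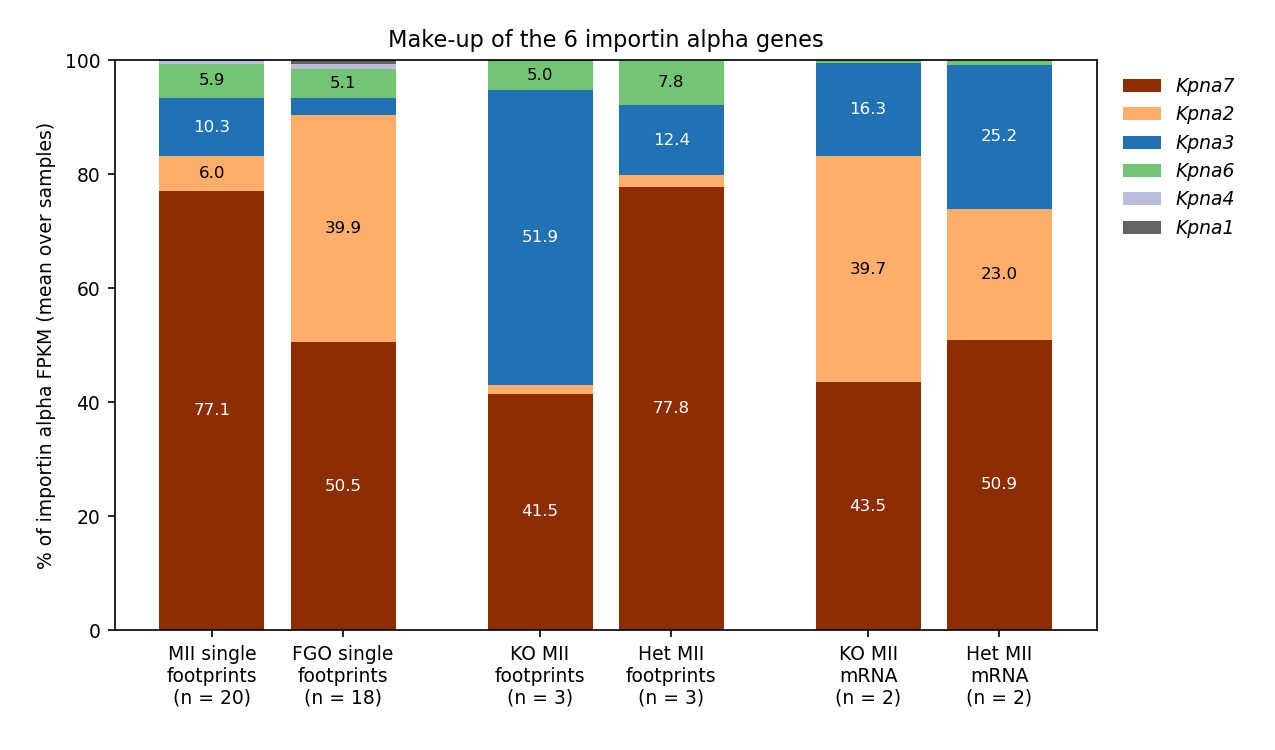
Share of each of the 6 importin alpha genes in their summed FPKM (%), averaged over samples, for MII and FGO single oocyte footprints, Btg4 KO and Het MII footprints and Btg4 KO and Het MII mRNA. Kpna7 holds 77.1% in MII single oocytes and 77.8% in Het MII footprints, and Kpna3 holds 51.9% in KO footprints and 12.4% in Het footprints.

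Members with at least 10 FPKM differed in how even they were between oocytes of a stage. With each oocyte scaled to the same summed FPKM, Tnpo1, Kpna7, Ipo8 and Nup35 had coefficients of variation of 26.1%, 26.3%, 30.7% and 31.7% over MII oocytes, the lowest of 16 members. Kpna2 had 223% there, the highest, and 118% without MII oocytes 2 and 4, when its mean was 3.87 FPKM. Nup54 had 114%, and 111% without them. In FGO, Kpna2 had 43.0%, within the range of the 12 members at that level (36.2% for Nup85 to 86.6% for Kpna6).

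With each oocyte scaled to the same summed FPKM, the median log2 ratio of all genes was -0.57, 10 members were higher and 8 lower of 40 (21.4% and 37.6% of all genes), and the members' median stood 0.68 above that of all genes, against 0.64 unscaled. That scaling put Nup107 at 0.97, Nup85 at 0.83 and Nup93 at 0.81, and leaving out MII oocyte 2 alone put Nup85 at 0.94. Without MII oocytes 2 and 4, 11 members were higher and 7 lower of 39, where 25.9% and 34.6% of all genes were. Without the 9 FGO and 1 MII oocyte that listed a hemoglobin gene, 17 members were higher and 7 lower of 36, where 31.1% and 27.3% of all genes were; Nup50, Nup88 and Nup205 were then past the fold at 1.45, 1.08 and 1.06, and Nup153 just past it.

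In Btg4 KO MII oocytes the mRNA of 3 members rose in the unpaired fit, and 0 members were called lower in it. The comparison asked which mRNA and footprint values differ without this adaptor. The mRNA libraries followed Smart-seq2, and whether tail length affects their values, or the footprint to mRNA comparison, was not tested. In the limma fit on log2(FPKM + 1) with Benjamini-Hochberg adjustment over 8865 genes, Kpna2, Nup133 and Nup43 passed an adjusted p of 0.05 among 39 members tested, where 18.9% of all genes rose and 0.62% fell (19.5% in either direction). At an unadjusted p under 0.05, 7 members were higher and 1 was lower of 39, where 33.4% of all genes passed in either direction. The members' median log2 change was 0.05, against 0.14 over all genes. In 10 members every KO mRNA library lay above every Het library, where 38.9% of all genes had that order, and in 9 every KO library lay below, where 22% had it. The limma fit above left out the replicate numbers. With those as a block, limma also called Xpo1, Kpnb1, Kpna7, Nup155 and Ipo9 higher. It then called Nup62, Nup35, Nup37, Ipo8, Nup88 and Xpo6 lower. Over all genes 34.2% rose and 17.5% fell in the blocked fit.

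Kpna2 mRNA was at 365 and 176 FPKM in KO oocytes, against 77.8 and 67.7 FPKM in Het oocytes, and rose by a log2 of 1.79 ± 0.38 (SE, limma adjusted p = 0.0137). Both KO libraries lay above both Het libraries, the first KO library farther than the second. Nup133 mRNA was at 4.76 and 2.64 FPKM in KO oocytes, against 0.938 and 0.314 FPKM in Het oocytes (log2 1.52 ± 0.37, adjusted p = 0.0221). Nup43 mRNA was at 80.1 and 111 FPKM in KO oocytes, against 23.4 and 48.3 FPKM in Het oocytes (log2 1.46 ± 0.40, adjusted p = 0.0347). In neither gene did the genotypes overlap.

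No footprint rise was called for these 3 genes, and for Kpna2 and Nup133 the footprints could not decide it. Kpna2 footprints were at 21.1, 0 and 11.0 FPKM in KO libraries 1 to 3, against 29.1, 0 and 7.02 FPKM in Het libraries 1 to 3, and both replicate 2 libraries listed the gene at 0. Its log2 change of 0.05 ± 1.59 (SE) is therefore no usable estimate. Nup133 footprints were at 1.40, 0 and 0.475 FPKM in KO libraries, against 0.386, 3.03 and 0 FPKM in Het libraries, too low for the test. Nup43 footprints were at 17.0, 6.88 and 4.95 FPKM in KO libraries, against 22.8, 21.1 and 31.1 FPKM in Het libraries. The 3 KO values of Nup43 lay below all Het values, with a log2 change of -1.44 ± 0.58 that did not pass (adjusted p = 0.250).

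Several carriers had higher KO mRNA values short of the threshold in the unpaired fit. Xpo1 mRNA was at 12.0 and 11.2 FPKM in KO oocytes, against 4.81 and 5.14 FPKM in Het oocytes (log2 1.08 ± 0.34, adjusted p = 0.0612). Kpna7 mRNA was at 337 and 230 FPKM in KO oocytes, against 172 and 150 FPKM in Het oocytes (log2 0.79 ± 0.31, adjusted p = 0.117). Kpnb1 mRNA was at 17.9 and 13.6 FPKM in KO oocytes, against 9.33 and 7.16 FPKM in Het oocytes (log2 0.86 ± 0.35, adjusted p = 0.132). The genotypes did not overlap in any of these 3 genes. The lowest log2 change was that of Nup62, whose mRNA was at 19.3 and 10.1 FPKM in KO oocytes, against 49.4 and 19.7 FPKM in Het oocytes (log2 -1.10 ± 0.49, adjusted p = 0.157). Nup35 mRNA was at 194 and 186 FPKM in KO oocytes, against 278 and 334 FPKM in Het oocytes (log2 -0.68 ± 0.29, adjusted p = 0.138). Rae1 and Nup98 mRNA had log2 changes of -0.12 and 0.20, and the other members tested lay between -0.65 for Xpo6 and 0.89 for Nup155.

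Dividing each library by its median FPKM moved the median change of all genes by -0.36, and relative to that median Kpna2, Nup133 and Nup43 mRNA stood at 1.65, 1.38 and 1.32 as deposited and at 1.56, 1.49 and 1.23 after scaling. With that scaling 1051 genes of the table rose and 735 fell, against 1677 and 55 as deposited, the calls of Kpna2 and Nup43 ended (adjusted p = 0.0529 and 0.169; that of Nup43 also with quantile normalization, log2 1.17, adjusted p = 0.0817) and Nup62 was called lower (log2 -1.54, adjusted p = 0.0467). The calls of Kpna2 and Nup133 ended without KO replicate 1 (log2 1.27 and 1.19), that of Nup133 without Het replicate 2 (1.24), and that of Nup43 without Het replicate 1 (0.95) or KO replicate 2 (1.23).

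In footprints, 2 other members rose in KO oocytes and 0 were called lower. Of 34 members tested with limma among 8526 genes, Kpna3 and Nup54 passed, where 3.21% of all genes rose and 0.328% fell (3.54% in either direction). At an unadjusted p under 0.05, 6 members were higher and 2, Nup43 and Nup62, were lower of 34, where 18.2% of all genes passed in either direction. The members' median log2 change was 0.51, against 0.27 over all genes. In 9 members every KO library lay above every Het library, where 16.8% of all genes had that order, and in 2 every KO library lay below, where 7.69% had it.

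Kpna3, an importin alpha of another subfamily than Kpna2 and Kpna7, had footprints at 329, 522 and 395 FPKM in KO libraries, against 68.9, 83.6 and 54.7 FPKM in Het libraries. It rose by a log2 of 2.56 ± 0.34 (limma adjusted p = 0.0181), and all 3 KO libraries lay far above the Het libraries. Its mRNA was at 119 and 90.7 FPKM in KO oocytes, against 88 and 71.8 FPKM in Het oocytes (log2 0.38 ± 0.31, adjusted p = 0.404). Nup54 footprints were at 170, 140 and 220 FPKM in KO libraries, against 49.8, 41.0 and 40.2 FPKM in Het libraries (log2 1.97 ± 0.34, adjusted p = 0.0322). The genotypes did not overlap, while Nup54 mRNA overlapped at 114 and 99.9 FPKM in KO oocytes, against 71.4 and 103 FPKM in Het oocytes.

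**Figure D4:**
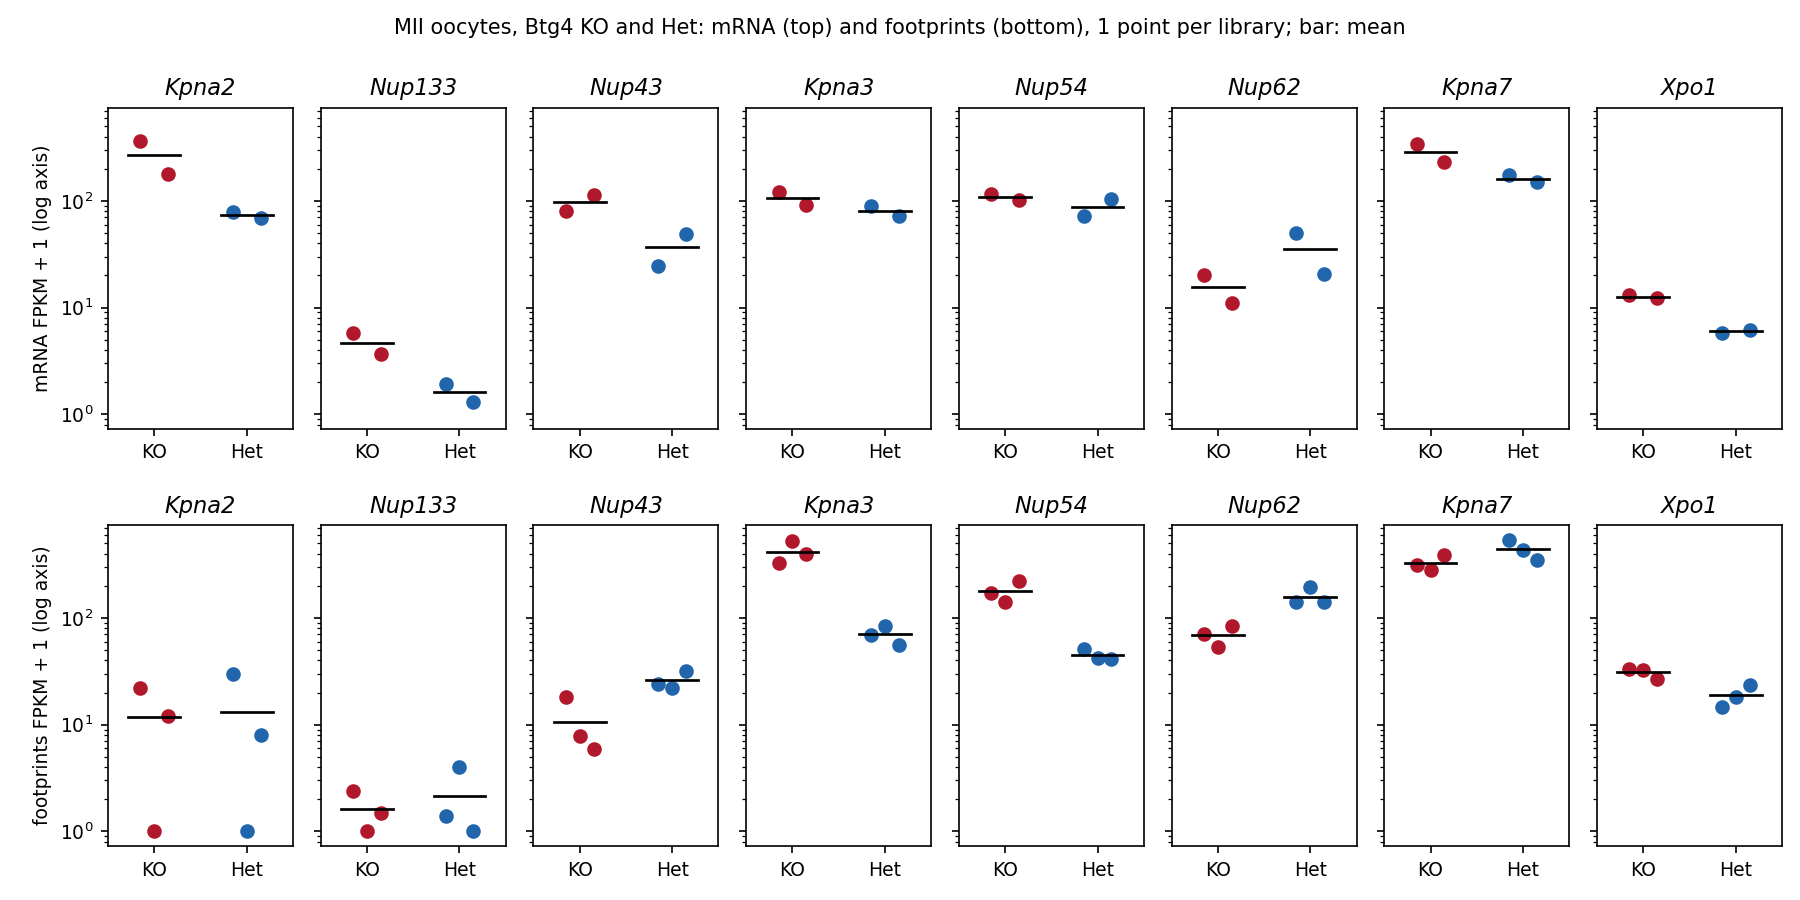
FPKM + 1 on a log axis in each MII library of Btg4 KO and Het oocytes for 8 members, mRNA (top, 2 libraries per genotype) and footprints (bottom, 3 per genotype), with bars at the means. Kpna2, Nup133 and Nup43 separate in mRNA, with KO above Het, and Kpna3 and Nup54 separate in footprints; Nup62 lies lower in KO in both rows.

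Scaffold and channel genes made up the members just short of the footprint threshold. Nup160 was at 116, 124 and 125 FPKM in KO libraries, against 48.1, 22.3 and 21.8 FPKM in Het libraries (log2 2.05 ± 0.43, adjusted p = 0.0530). Nup107 was at 155, 235 and 194 FPKM in KO libraries, against 77.2, 40.4 and 62.9 FPKM in Het libraries (log2 1.71 ± 0.38, adjusted p = 0.0654). Nup98 was at 238, 466 and 352 FPKM in KO libraries, against 126, 112 and 122 FPKM in Het libraries (log2 1.49 ± 0.35, adjusted p = 0.0710). In all 3 genes every KO library lay above every Het library. Nup155 footprints averaged 22.4 ± 1.94 FPKM in KO libraries and 7.16 ± 6.76 FPKM in Het libraries (SD, n = 3 each), with an adjusted p of 0.218 in limma.

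Nup62 had the opposite order, at 69.7, 52.8 and 82.2 FPKM in KO libraries, against 140, 192 and 139 FPKM in Het libraries (log2 -1.20 ± 0.35, adjusted p = 0.130). Every KO library lay below every Het library. Ipo8 and Tnpo1, the receptors with the highest MII over FGO ratios in single oocytes, had log2 changes near 0. Tnpo1 was at 177, 207 and 192 FPKM in KO libraries, against 234, 180 and 174 FPKM in Het libraries (log2 -0.02 ± 0.29). Ipo8 was at 315, 562 and 445 FPKM in KO libraries, against 412, 466 and 406 FPKM in Het libraries (log2 0.00 ± 0.31). The genotypes overlapped in both genes. Kpna7 was at 310, 282 and 391 FPKM in KO libraries, against 540, 434 and 345 FPKM in Het libraries (log2 -0.41 ± 0.31, adjusted p = 0.556). Xpo1, Kpnb1 and Rae1 had footprint log2 changes of 0.73, 0.21 and -0.22.

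Nup35 had 792, 0 and 883 FPKM in KO libraries, against 1256, 0 and 744 FPKM in Het libraries. The 0 in both replicate 2 libraries, shared with many genes as given above, leaves its footprint change without a usable estimate.

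By footprints, Kpna3 held the largest share of the importin alpha genes in KO oocytes and Kpna7 in Het oocytes. Of the summed importin alpha footprints, Kpna3 held 46.5%, 47.9% and 61.2% in KO libraries, against 10.2%, 12.3% and 14.6% in Het libraries (ordered by size). Kpna7 held 33.1%, 43.9% and 47.4% in KO libraries, against 75.9%, 77.4% and 80.1% in Het libraries. The genotypes were apart for both genes. In mRNA, Kpna3 held 14.5% and 18.2% in KO libraries, against 24.6% and 25.8% in Het libraries, and Kpna2 held 35.2% and 44.2% in KO libraries, against 22.8% and 23.2% in Het libraries. The sources used here do not say how reads shared by close relatives such as Kpna3 and Kpna4 were assigned, and Kpna4 footprints averaged 0.559 FPKM in KO and 0.308 FPKM in Het libraries.

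Dividing each library by its median FPKM moved the median footprint change of all genes by -0.37, and relative to that median Kpna3 and Nup54 stood at 2.29 and 1.70 as deposited and at 2.17 and 1.58 after scaling, where neither passed (adjusted p = 0.0778 and 0.133). Leaving out any 1 library ended the Nup54 call (log2 1.80 to 2.13), and leaving out KO replicate 1, 2 or 3 or Het replicate 3 ended that of Kpna3 (log2 2.72, 2.39, 2.59 and 2.41); without any 1 KO library no gene of the table was called.

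Translational efficiency, the footprint change beyond the mRNA change, was tested as an interaction over all 10 Btg4 libraries. Of 34 members tested, 0 passed in either direction, where 0.853% of all 7382 genes were higher and 0.447% lower (1.3% in either direction). At an unadjusted p under 0.05 limma gave 5 members higher and 2 lower in KO, where 14.0% of all genes passed in either direction. The highest value was that of Kpna3, with a log2 of 2.18 ± 0.48 (adjusted p = 0.0683), followed by Nup107 with 2.07 ± 0.57 (0.137) and Nup160 with 1.75 ± 0.60 (0.220). The lowest was that of Nup43, at -2.90 ± 0.79 (0.132), followed among genes without a library at 0 by Kpna7, at -1.20 ± 0.45 (0.266). The members' median was 0.62, against 0.24 over all genes.

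In Het oocytes, members differed widely in footprints per mRNA. The log2 ratio of (mean footprint FPKM + 1) to (mean mRNA FPKM + 1) was highest for Kpna6 at 3.53, with 42.6 FPKM in footprints and 2.76 FPKM in mRNA. Xpo4, the exportin of the translation factor eIF5A, stood at 3.30 and Tnpo1 at 3.0, and these 3 ranked at the 95th percentile or above of 6564 genes. Kpna2 had the lowest value of the 33 members with 1 FPKM in both assays, at -2.50, with 12.0 FPKM in footprints and 72.8 FPKM in mRNA, at the 4.45 percentile. That footprint mean includes a library that listed Kpna2 at 0, as given above, so its rank has no firm basis. Nup214 stood at -1.32, Nup54 at -0.98 and Rae1 at -0.91, whereas Nup62 stood at 2.15. The members' median was 0.67, against 0.37 over all genes. Footprints and mRNA were made from separate libraries by different methods, so the ratio orders genes and carries no absolute scale.

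Poly(A) tails of members were ordinary in FGO and could be followed to MII for few genes. In the tail table a 0 means that no value is given. In FGO, 34 members had a tail, between 32.8 nt for Kpna3 and 76.3 nt for Kpnb1 with a median of 56.3 nt, against a median of 54.1 nt over 6353 genes. Fewer genes had a tail in the MII libraries, where 10 and 10 members in the KO libraries, 8 in the Het library and 4 in the wild-type library had one.

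**Figure D5:**
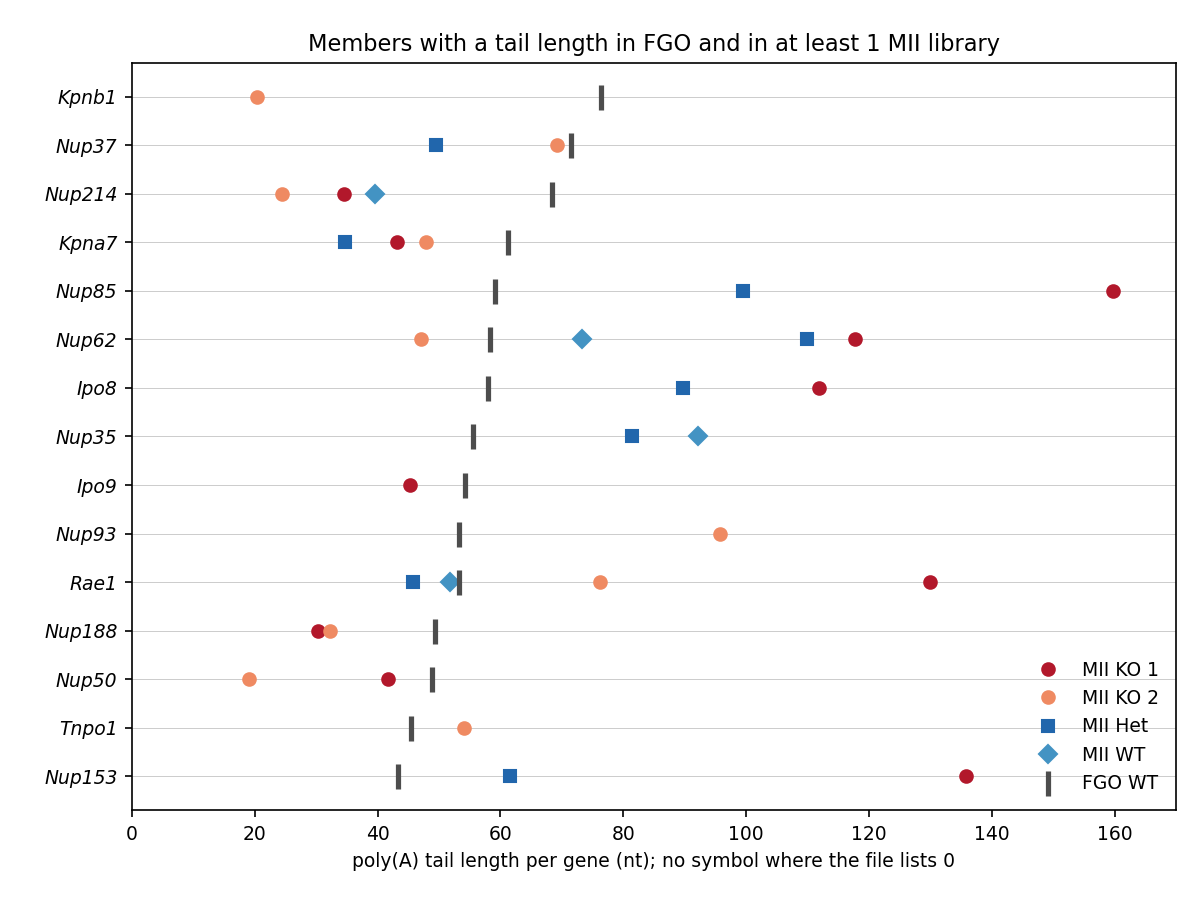
Poly(A) tail length (nt) of the 15 members with a value in FGO and in at least 1 MII library, 1 symbol per library. Nup85, Nup62, Ipo8, Nup35 and Nup153 lie to the right of their FGO mark in the Het library. Nup214, Nup188, Nup50, Kpna7, Nup37, Kpnb1 and Ipo9 lie to the left of their FGO mark in every MII library with a value.

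Between stages, Nup62 tails were 73.2 nt in wild-type MII oocytes and 110 nt in Het MII oocytes, against 58.3 nt in FGO. Nup35 tails were 92.1 nt in wild-type MII and 81.5 nt in Het MII oocytes, against 55.5 nt in FGO. Both had longer tails in the 2 MII libraries that carry BTG4, and both had more footprints in MII single oocytes. Rae1 and Nup37 also had more footprints in MII (log2 ratios 1.87 and 2.29), yet their Het MII tails were shorter than in FGO. Rae1 was at 45.8 nt in Het MII oocytes, against 53.2 nt in FGO, and a link of tails with footprints was not tested. Ipo8 and Nup85 were at 89.7 and 99.6 nt in Het MII oocytes, against 58.0 and 59.1 nt in FGO. Kpna7 and Nup37 went the other way, at 34.7 and 49.5 nt in Het MII oocytes, against 61.2 and 71.5 nt in FGO. In all, 5 of 8 members were longer in Het MII than in FGO, as were 71.0% of 580 genes, and 2 of 4 were longer in wild-type MII, as were 42.0% of 224 genes. Rae1 and Nup214 were the shorter ones in wild-type MII, at 51.8 and 39.5 nt, against 53.2 and 68.3 nt in FGO.

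A few members had a tail in KO MII oocytes and in FGO without a Het value. Nup214 was at 34.6 and 24.4 nt in KO oocytes, against 68.3 nt in FGO, Nup188 at 30.3 and 32.3 nt in KO oocytes, against 49.4 nt in FGO, and Nup50 at 41.8 and 19.1 nt in KO oocytes, against 48.9 nt in FGO. Both KO libraries lay below FGO in each of these 3 genes. In 1 KO library each, Kpnb1 and Ipo9 were at 20.4 and 45.2 nt, against 76.3 and 54.2 nt in FGO, and Nup93 and Tnpo1 at 95.8 and 54.1 nt, against 53.3 and 45.4 nt in FGO. For Nup50, Tnpo1 and Nup214 the authors gave a merged wild-type and Het MII value, at 48.9, 69.2 and 39.6 nt. Their merged KO values were 28.2, 89.8 and 28.5 nt.

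Between genotypes, only Kpna7, Nup62 and Rae1 had a tail in the Het and both KO libraries. Rae1 tails were 130 and 76.2 nt in KO oocytes, against 45.8 nt in Het oocytes, a difference of 57.3 ± 31.4 nt (SE, limma adjusted p = 0.392). Kpna7 tails were 43.1 and 48.0 nt in KO oocytes, against 34.7 nt in Het oocytes (10.9 ± 7.51 nt, adjusted p = 0.466). Both KO values lay above the Het value for Rae1 and Kpna7. Nup62 tails were 118 and 47.0 nt in KO oocytes, against 110 nt in Het oocytes, on both sides of it (-27.5 ± 40.9 nt, adjusted p = 0.718). Only the pair of KO libraries gave the fit its residual spread (1 degree of freedom), and it called 0 of 272 genes, with 18% at an unadjusted p under 0.05. In KO library 1, all 6 members with a value in both were longer than in Het, where 40.6% of 308 genes were, and Nup153 and Nup85 had 136 and 160 nt there, against 61.6 and 99.6 nt in Het. The library KO 2 had no value for those genes, and in it 3 of 4 members were longer, where 38.4% of 396 genes were. The authors also gave merged values of the KO libraries, and of the wild-type and Het MII libraries. Of the 6, Ipo8 and Nup62 were shorter in merged KO, at 85.4 and 74.4 nt, against 203 and 91.7 nt. For Ipo8 both merged values differ from its only listed MII values, 112 nt in KO library 1 and 89.7 nt in Het oocytes. Kpna7, Nup153, Nup85 and Rae1 were longer in merged KO.

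Set side by side, the stage and genotype comparisons shared no library. The 7 members lower in MII had a median KO over Het mRNA log2 change of 0.52, positive in 5, and the 13 members higher in MII had -0.37, positive in 4. Across 37 members the rank correlation (Spearman's rho) of the MII over FGO ratio with the mRNA change in KO was -0.49, and -0.56 across 7739 genes. FGO tail length had a rho of -0.40 with the MII over FGO ratio across 32 members, and -0.37 across 5730 genes. The MII over FGO ratio had a rho of 0.07 with the footprint change in KO across 33 members, and -0.17 across 7583 genes. FGO tail length had a rho of 0.05 with the mRNA change across 34 members and of -0.37 with the footprint change across 30 members, against 0.18 across 5808 genes and -0.12 across 5288 genes. The mRNA and footprint changes in KO had a rho of 0.10 across 34 members and 0.19 across 7382 genes. These are descriptions across genes, which are not independent replicates.

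Other genes of the same machinery, outside the naming rule, gave the context. Over all genes, 25.8% were higher and 31.8% lower in MII by the fold used above, and 18.9% rose in KO mRNA. Of 11 further pore genes, 5 were higher in MII and 0 lower by the same fold, and 0 passed limma in KO mRNA or footprints, with 0 higher and 4 lower in mRNA and 0 higher and 1 lower in footprints at an unadjusted p under 0.05. Gle1, the mRNA export factor at the cytoplasmic face, averaged 144 ± 71.4 FPKM in MII oocytes and 4.57 ± 4.96 FPKM in FGO (log2 ratio 4.70). Seh1l, a Y complex subunit, had a log2 ratio of 3.21, Ahctf1 (ELYS), which seeds pores on chromatin, of 2.67, Nupl1, the third channel partner of Nup62 and Nup54, of 1.34, and Nupl2 of 1.19. Of 9 Ran system and carrier genes, 1 was higher in MII and 5 were lower. Rcc1, the exchange factor that charges Ran on chromatin, averaged 21.0 ± 19.5 FPKM in MII oocytes and 1.10 ± 2.06 FPKM in FGO (log2 ratio 3.39), whereas Ran had a log2 ratio of -1.10, Ranbp1 of -2.58 and Rangap1 of -2.43. Ranbp1 and Snupn, the adaptor that imports spliceosomal snRNPs, rose in KO mRNA by a log2 of 3.02 ± 0.44 and 1.64 ± 0.41 (limma adjusted p = 0.00295 and 0.0262).

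Of 19 mRNA export genes, 8 were higher and 8 lower in MII. Ddx39b, Alyref, Thoc5 and Thoc6 rose in KO mRNA, by log2 changes of 1.20 to 3.72, where 18.9% of all genes rose. Of 12 lamina and envelope genes, 4 were higher in MII and 0 lower. These were Lbr, the lamin B receptor, with a log2 ratio of 3.39, Sun1, a bridge of the inner membrane, with 2.95, Tmpo with 2.78 and Lmnb1 with 1.39. Of the lamina genes tested, 0 of 8 passed limma in KO mRNA and 0 of 9 in footprints, with 1 and 2 higher in KO at an unadjusted p under 0.05.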

How the data were processed

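Footprint and mRNA tables were deposited by the authors as FPKM per gene. The submitters' processing notes name Cufflinks 2.2.1, STAR 2.5.3a, cutadapt 1.14, Bowtie2 2.2.2 and Trim Galore 0.4.2, with no role for each. Per the labels' protocols, mRNA libraries followed Smart-seq2 and tails were read from end-extended total RNA with long reads. The deposited tail table gives nt per gene, and the tail caller is not stated. For mRNA and tails the depth per library is unknown. In the single oocyte footprints, whole reads could be recovered for 11 members, in genes where 93.9% of values below 30 reads were whole within 0.05 reads.

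The members and lists were chosen with earlier results of these data known. Exact repeats of rows (231) were dropped. Values were taken to log2(FPKM + 1), a log2 scale computed here from the deposited FPKM. Genes averaging at least 1 FPKM were fitted with limma 3.58.1 (R 4.3.3; lmFit, eBayes with a trend, two-sided), adjusted by Benjamini-Hochberg over all genes, with a threshold of 0.05. Translational efficiency was the interaction of assay and genotype. The fits were also run on simulated data, with planted changes larger than any called for a member. That run does not bear on the members' calls. Single oocytes were compared by means with no test. Tables and figures used Python 3.11.15, pandas 2.3.3 and matplotlib 3.10.9.

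Members named with values per sample were those past a threshold, the 8 highest and 8 lowest MII over FGO ratios, those with a tail in FGO and any MII library, and Kpna2, Kpna7, Kpnb1, Xpo1, Nup98 and Rae1; further members near a threshold were named after their values were seen. Replicate numbers of the Btg4 footprints come from the labels, and the deviations of same-numbered KO and Het libraries correlated at 0.255, 0.422 and 0.162, so the numbers were taken to pair them. The main fits left this pairing out, and it was used only as a block in an alternative fit. Same-numbered mRNA libraries correlated at 0.627, and with their numbers as a block the mRNA calls differed, as given above.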

Additional observations from a re-analysis of the deposited data

How the results depend on the processing

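Alternatives were another pseudocount, no filter, median scaling, quantile normalization, no trend, a replicate block and leaving out each library; 191 summary values stayed as reported, 17 counts moved by over 1.5 times and no called value changed sign. The members that rose in KO mRNA, 3 as reported, numbered 0 with no filter, 1 with median scaling (Nup133), and 1 to 2 leaving out 1 library; members that fell numbered 1 with median scaling (Nup62) and 0 to 1 leaving out 1 library. With 1 library left out, the lone mRNA library is assumed to vary like the pair. The mRNA libraries share only replicate numbers: with those as a replicate block 8 members rose and 6 fell, where 34.2% and 17.5% of all genes did, and deviations of same-numbered libraries correlated at 0.627. The members that rose in footprints, 2 as reported, numbered 0 with median scaling, 1 with quantile normalization, 1 with no trend (Kpna3 in both) and 0 to 2 leaving out 1 library (Kpna3 and Nup160 without Het replicate 1). The pairing block changed no call of a member in footprints or translational efficiency. With quantile normalization 1 member, Kpna3, passed in translational efficiency (adjusted p = 0.0482). The cause of these changes was not tested. Low members rest on few reads in MII oocytes, as for Xpo7 and Nup43 (13 and 30 reads, against 395 and 110 in FGO).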
